A study of Mus musculus with 24 samples.

Results

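The genes described here are p21 and other brakes on the cell cycle, with some of their partners, chosen by name. The set holds the CDK inhibitors Cdkn1a (p21), Cdkn1b, Cdkn2a, Cdkn2b, Cdkn2c and Cdkn2d, the kinase Wee1, the cyclin Ccnd1, and Trp53 with its regulator Mdm2. Ccnd1 drives the cycle and Mdm2 acts against p53, so brakes is used below as a name of the whole set. These are 10 of the genes in a deposited table of 33079 entries, and the set takes 11 entries, because Cdkn2a is listed as 2 transcripts. The data are 24 polyA-selected RNA-seq libraries of mouse embryonic stem (mES) cells that carry the Per2::Luciferase (Per2Luc) knock-in, which fuses the clock protein PER2 to a light-emitting reporter. The 12 WT libraries come from the control Per2Luc cells with both Rev-erb genes intact, and the 12 KO libraries from Per2Luc cells in which exons of Rev-erbα (Nr1d1) and Rev-erbβ (Nr1d2) were deleted with CRISPR/Cas9. Cells of both genotypes formed embryoid bodies, which were plated and cultured until differentiation day 28. The cultures then received 100 nM dexamethasone, a synthetic glucocorticoid used to set the circadian clocks of a culture to a common phase. They were frozen every 4 h from 12 to 56 h later. Each library holds the pooled RNA of cells from 3 embryoid bodies, and each genotype has 1 library per time point. The KO line was picked as a colony in 2 successive rounds of targeting and compared with its control line alone, so effects of the deletions and other differences between these cell lines cannot be told apart.

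Cells divide when cyclin-dependent kinases (CDKs), switched on by cyclins, inactivate the retinoblastoma proteins and later start mitosis. The CDK inhibitors hold these kinases back: the CIP/KIP members p21 and p27 bind CDK complexes with their cyclin, and the INK4 members bind the CDK4 and CDK6 kinases that partner with D-type cyclins. p53 is a transcription factor that induces p21 after damage, MDM2 is both a target of p53 and the ligase that marks it for degradation, and WEE1 delays mitosis by phosphorylating CDK1. REV-ERBs are nuclear receptors that repress transcription within the circadian clock, and Cdkn1a and Wee1 are widely cited as genes through which the clock reaches the cell cycle.

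Of the 10 genes, 4 were higher in KO cells than in WT cells: Cdkn1a, Cdkn2a (both transcripts), Cdkn2b and Mdm2. None was lower, and the other 6 did not pass the test. The test was limma on log2(RPKM + 0.1) over all 15112 entries with a mean above 0.5 RPM (reads scaled to the library total, without length) in either genotype, with p-values adjusted by Benjamini-Hochberg and called under 0.05, and all 11 entries passed that filter. RPKM scale the reads to exonic length and library total, so levels in RPKM can be set side by side between genes. Of all entries tested, 11.2% were called higher and 14.7% lower in KO cells, beside 5 of 11 and 0 of 11 for the cell-cycle brakes. The 5 entries include both of Cdkn2a, which share most of their reads, and Mdm2, which is no brake itself. The genes were chosen with earlier results of these data known, so these counts are a description only. The median log2 fold change was 0.11 over the 11 entries and -0.01 over all entries tested. The shifts were small, with the largest 0.30 on the log2 scale.

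The stretches before the transcription start of the called genes are given first, because their RNA differed between the genotypes. They come from RefSeq promoter windows of GRCm38.p6, which span 250 bases before to 50 bases after a start and matched 8 of the 10 genes with 11 windows, Wee1 and Ccnd1 being unmatched. Each line holds the 250 bases upstream, 5′ to 3′ on the strand of the gene, and capitals mark matches to the motifs searched. For Cdkn1a both listed starts are shown, the first of which is the start of the deposited gene model and the second of which lies 2790 bases upstream of it.
Cdkn1a, chr17:29093519-29093768, plus strand: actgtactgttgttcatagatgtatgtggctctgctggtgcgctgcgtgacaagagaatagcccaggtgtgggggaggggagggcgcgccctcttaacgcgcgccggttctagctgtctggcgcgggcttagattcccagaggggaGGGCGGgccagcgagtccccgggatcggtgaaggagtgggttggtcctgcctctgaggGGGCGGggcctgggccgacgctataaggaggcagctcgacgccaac
Cdkn1a upstream start, chr17:29090729-29090978, plus strand: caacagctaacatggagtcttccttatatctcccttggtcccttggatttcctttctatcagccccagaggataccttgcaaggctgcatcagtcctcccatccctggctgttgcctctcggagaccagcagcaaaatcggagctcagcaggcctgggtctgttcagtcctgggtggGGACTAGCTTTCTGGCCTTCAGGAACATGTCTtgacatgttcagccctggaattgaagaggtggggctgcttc
Cdkn2a variant 1, chr4:89294620-89294869, minus strand: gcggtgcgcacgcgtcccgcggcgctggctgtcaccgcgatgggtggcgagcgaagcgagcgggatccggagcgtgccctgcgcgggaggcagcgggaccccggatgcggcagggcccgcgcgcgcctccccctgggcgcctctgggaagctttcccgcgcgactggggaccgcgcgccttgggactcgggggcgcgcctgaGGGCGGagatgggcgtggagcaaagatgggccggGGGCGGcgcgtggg
Cdkn2a variant 2, chr4:89282193-89282442, minus strand: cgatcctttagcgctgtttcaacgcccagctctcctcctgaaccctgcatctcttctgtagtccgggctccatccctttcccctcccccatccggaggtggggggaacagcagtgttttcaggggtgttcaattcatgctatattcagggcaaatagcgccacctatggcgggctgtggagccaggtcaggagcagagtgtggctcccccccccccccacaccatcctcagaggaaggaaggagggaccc
Cdkn2b, chr4:89311033-89311282, minus strand: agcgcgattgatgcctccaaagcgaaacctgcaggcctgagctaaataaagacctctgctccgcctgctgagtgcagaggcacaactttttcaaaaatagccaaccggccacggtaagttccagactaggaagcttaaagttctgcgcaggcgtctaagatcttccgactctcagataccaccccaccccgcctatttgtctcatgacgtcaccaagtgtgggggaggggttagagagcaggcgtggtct
Mdm2, chr10:117710759-117711008, minus strand: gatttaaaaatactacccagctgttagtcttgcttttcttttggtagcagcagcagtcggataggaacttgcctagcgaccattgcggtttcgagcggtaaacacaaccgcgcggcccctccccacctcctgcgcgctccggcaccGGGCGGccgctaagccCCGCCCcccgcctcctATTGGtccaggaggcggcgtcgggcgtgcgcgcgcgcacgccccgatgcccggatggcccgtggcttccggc
Motifs were searched on both strands of the whole 300-base windows: the E-box CACGTG, the ROR element core TAGGTCA to which REV-ERBs and RORs bind, the CCAAT box, the GC box GGGCGG, the E2F sites TTTCGCGC and TTTGGCGC, and the p53 consensus element, taken as a pair of matching half-sites with at most 13 bases between them. The p53 element was added to the search after the values of these genes had been seen. The GC box was present in 5 of the 6 windows, all but that of the upstream Cdkn1a start, and 35.7% of all 32851 windows hold it. The main Cdkn1a start, Cdkn2a variant 1 and Mdm2 had 2 matches each within the bases printed, and the other matches, in the windows of both Cdkn2a variants and of Cdkn2b, lay past the start. Mdm2 and Cdkn2a variant 2 had a CCAAT box, which on the gene's strand reads ATTGG, as do 37.4% of windows. The 32 capital letters before the upstream Cdkn1a start span a match to the p53 element, with a half-site at each end. The letters between the half-sites may be any and match no motif. Of all windows, 0.0731% hold such an element. The other windows of these genes, that of Mdm2 among them, held none, and bases outside the windows were not searched. The E-box and the ROR element core were found in none of these 6 windows, and 7.15% and 2.61% of all windows hold them. The E-box stood 10 bases after the start of Trp53 and 34 bases after that of Cdkn2c, and the ROR element core 180 bases before the latter. E2F sites, held by 0.813% of windows, matched none of the 11. Past the start, where no bases are printed, a CCAAT box and a GC box share 2 bases in the window of Cdkn2a variant 2. These are matches of letters and say nothing of binding.

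The levels of the brakes spanned more than 2 orders of magnitude. Over the 24 libraries, Cdkn1a was the highest with a mean of 109 RPKM (range 92.1 to 127), above 98.5% of the entries tested. Cdkn2a followed with 41.0 RPKM for variant 2 and 33.6 RPKM for variant 1, then Cdkn2b with 25.6 RPKM, Mdm2 with 21.7 RPKM and Trp53 with 20.2 RPKM. Lower still were Cdkn1b with 13.1 RPKM, Ccnd1 with 8.17 RPKM, Cdkn2d with 5.48 RPKM and Wee1 with 3.55 RPKM. Cdkn2c was the lowest with 0.806 RPKM. Neighbours in this order whose ranges did not overlap were Cdkn1a and Cdkn2a, Trp53 and Cdkn1b, Cdkn1b and Ccnd1, and Wee1 and Cdkn2c. Mdm2 was above Trp53 in 19 of 24 libraries only, so their order is not settled beyond their spread. Each other neighbouring entry kept its place in all 24 libraries. Reads from exons shared by the Cdkn2a transcripts were counted in both of their entries. The place of either transcript by itself, also relative to Cdkn2b, is therefore not settled.

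**Figure D1:**
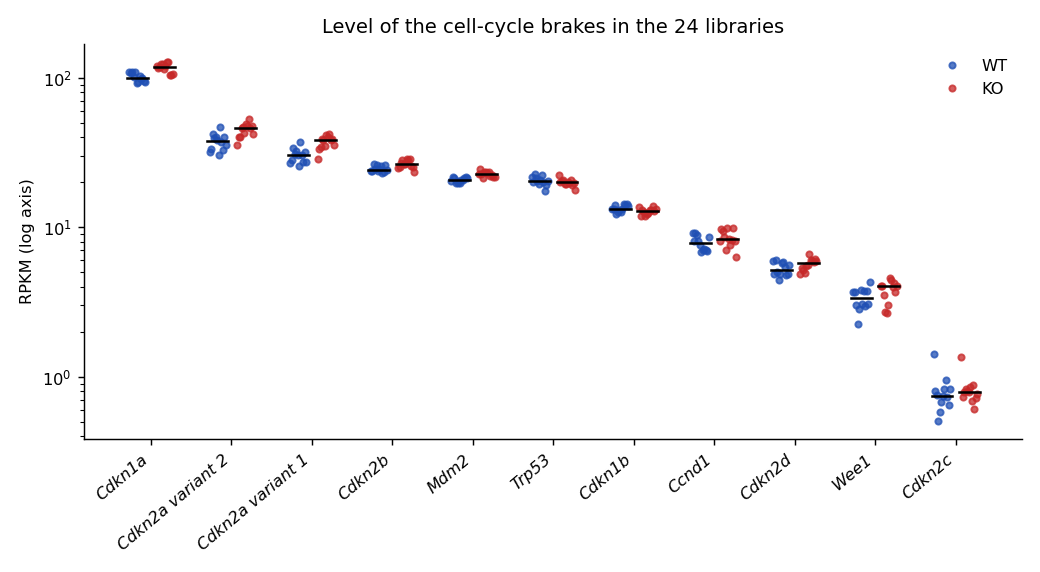
Level of each cell-cycle brake in RPKM on a log axis, with WT libraries in blue, KO libraries in red and the median of each genotype as a black bar. Cdkn1a sits alone at the top between 92.1 and 127 RPKM, and Cdkn2c at the bottom between 0.506 and 1.41 RPKM.

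Among the CIP/KIP inhibitors, Cdkn1a rose in KO cells and Cdkn1b did not. Cdkn1a encodes p21, the inhibitor most closely tied to p53, and lies on chromosome 17 from 29093769 to 29100722 on the plus strand (GRCm38) with 3 exons. In WT cells Cdkn1a had a lowest value of 92.1 RPKM at 32 h, a median of 99.9 RPKM and a highest value of 109.9 RPKM at 12 h. In KO cells its lowest value was 104 RPKM at 52 h, its median 118 RPKM and its highest value 127 RPKM at 40 h. Of the 12 KO libraries, 9 lay above every WT library, and the other 3, at 48, 52 and 56 h, lay within the WT range. The WT mean of 101 ± 6.73 RPKM compares with a KO mean of 117 ± 8.23 RPKM (SD, n = 12 each), a log2 fold change of 0.21 ± 0.042 (SE; limma, adjusted p = 7.1e-04). KO cells were above WT cells at 12 of 12 time points, with a KO to WT ratio between 1.04 at 48 h and 1.29 at 44 h. Cdkn1a is one of the genes the study itself set out to compare, so its direction is not independent evidence here. These SDs hold change over time as well as noise between libraries, and in bulk RNA a change in the share of expressing cells cannot be told apart from a change in RNA per cell.

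Cdkn1b encodes p27, which restrains CDK2 in resting cells, and lies on chromosome 6 from 134920401 to 134925525 on the plus strand. Its WT libraries ran from 12.3 RPKM at 24 h through a median of 13.2 RPKM to 14.4 RPKM at 52 h. Its KO libraries ran from 11.9 RPKM at 28 h through a median of 12.9 RPKM to 13.9 RPKM at 48 h. The ranges overlapped for most of their length, and KO cells were above WT cells at only 2 of 12 time points. The log2 fold change of -0.07 ± 0.032 (SE) was not called by limma (adjusted p = 0.132). An exact sign-flip test on the differences within time points gave an unadjusted p of 0.0103, and the limma test is the one adjusted over all entries.

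The largest shift among the brakes was that of Cdkn2a, at the INK4 locus on chromosome 4. Cdkn2b, at the same locus, shifted less than Cdkn1a and Mdm2. Cdkn2a gives rise to unlike proteins from alternative first exons: variant 2 encodes p16INK4a, and variant 1 encodes p19ARF, which is no CDK inhibitor but blocks MDM2. Variant 1 spans 89274473 to 89294619 and variant 2 spans 89274473 to 89282192 on the minus strand. They share 643 bases of exon, which is 69.2% of the exonic length of variant 1 and 75.6% of that of variant 2, and reads from the shared exons entered both entries. The values of the transcripts are therefore largely the same reads counted for each, and which one changed cannot be read from them. Variant 2 had more fragments than variant 1 in 24 of 24 libraries, although its own first exon is shorter (207 against 286 bases).

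For variant 1, the WT libraries had a lowest value of 25.7 RPKM at 36 h, a median of 30.3 RPKM and a highest value of 37.4 RPKM at 40 h. The KO libraries had a lowest value of 28.8 RPKM at 12 h, a median of 38.3 RPKM and a highest value of 42.1 RPKM at 44 h. The ranges overlapped, with 7 KO libraries above every WT library. The mean rose from 30.1 ± 3.38 to 37.1 ± 3.77 RPKM (SD, n = 12 each), a log2 fold change of 0.30 ± 0.062 (SE; limma, adjusted p = 0.00123), and KO was above WT at 12 of 12 time points. Variant 2 ran from 30.5 RPKM through a median of 37.6 RPKM to 46.5 RPKM in WT and from 35.3 RPKM through 46.0 RPKM to 52.7 RPKM in KO, at the same hours. Its log2 fold change was 0.26 ± 0.068 (SE; limma, adjusted p = 0.00674), with 5 KO libraries above every WT library and the 20 h pair as the only one in which WT was higher. For both variants the KO to WT ratio was highest at 36 h (1.60), where the WT library was at its lowest. The ratio of mean RPKM was 1.14 for variant 1 at 12 to 32 h and 1.31 at 36 to 56 h, but a difference in linear trend between the genotypes was not called (0.16 ± 0.111 log2 per 24 h, SE; limma, adjusted p = 0.848). With the 6 early time points alone, neither variant was called (limma, adjusted p = 0.167 for variant 1 and 0.312 for variant 2).

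Cdkn2b encodes p15INK4b and lies 11669 bases from Cdkn2a on the same strand, from 89306289 to 89311032. Its WT libraries ran from 23.2 RPKM at 44 h through a median of 24.2 RPKM to 26.6 RPKM at 20 h. Its KO libraries ran from 23.4 RPKM at 56 h through a median of 26.5 RPKM to 28.8 RPKM at 36 h. The groups overlapped, with 6 KO libraries above every WT library, and WT was higher at 52 and 56 h. The log2 fold change of 0.11 ± 0.035 (SE) passed the test (limma, adjusted p = 0.0254). This call was lost when the 24 h, 36 h or 44 h pair was left out (limma, adjusted p = 0.0587, 0.0610 and 0.0788), in either set of 6 time points alone (adjusted p = 0.236 and 0.189) and after quantile normalization (adjusted p = 0.0649).

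**Figure D2:**
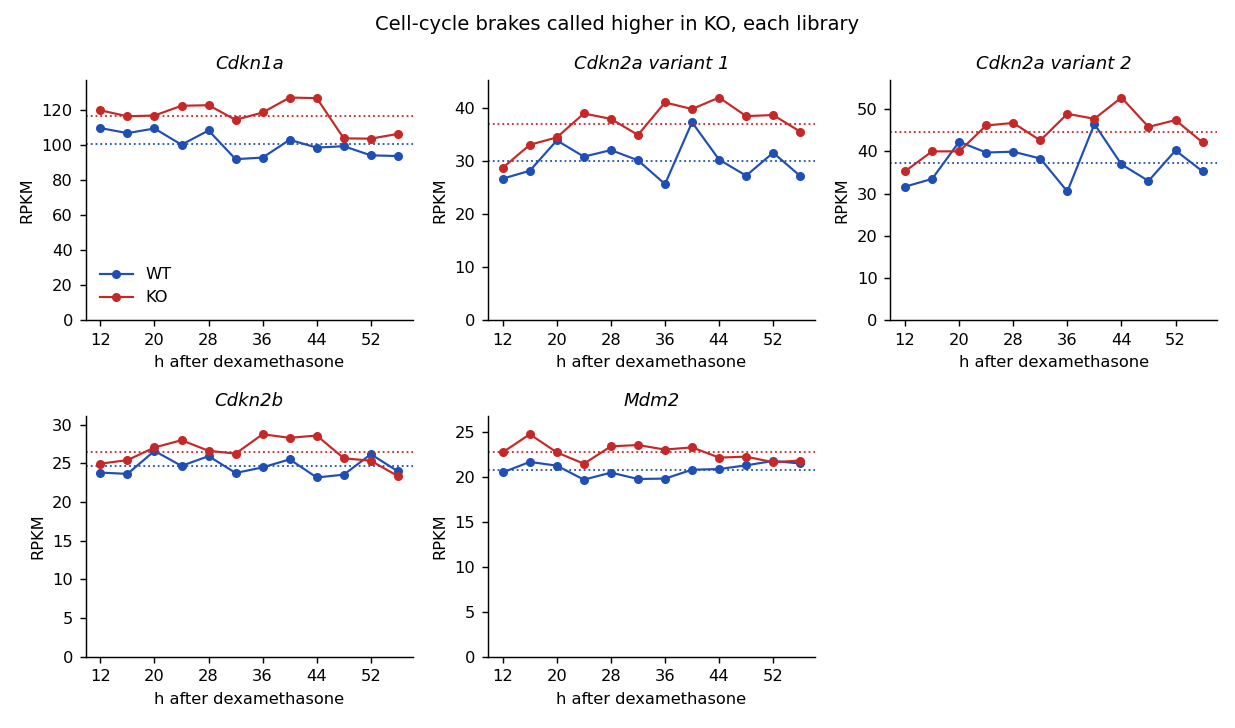
RPKM of the called genes against hours after dexamethasone, 1 point per library, WT in blue and KO in red, with the mean of each genotype dotted. The red lines of Cdkn1a and of Cdkn2a variant 1 run above the blue ones at all 12 time points, while those of Cdkn2b and Mdm2 cross late.

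The remaining INK4 inhibitors did not pass the test. Cdkn2c encodes p18INK4c and spans 109660876 to 109665372 on the minus strand of chromosome 4. It ran from 0.506 RPKM at 24 h through a median of 0.749 RPKM to 1.41 RPKM at 12 h in WT, and from 0.606 RPKM at 48 h through a median of 0.793 RPKM to 1.36 RPKM at 12 h in KO. The 12 h library stood highest in both genotypes and the ranges nearly coincided. Only 8 to 27 fragments per library fell on the gene, and its log2 fold change of 0.06 ± 0.116 (SE; limma, adjusted p = 0.728) leaves a 95% confidence interval from -0.18 to 0.30, which includes a shift of the size seen for Cdkn1a. Without the 12 h pair the log2 fold change was 0.07 (limma, adjusted p = 0.530).

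Cdkn2d encodes p19INK4d and spans 21288464 to 21291209 on the minus strand of chromosome 9. In WT it ran from 4.47 RPKM at 28 h through a median of 5.21 RPKM to 6.03 RPKM at 20 h. In KO it ran from 4.87 RPKM at 12 h through a median of 5.75 RPKM to 6.58 RPKM at 36 h. The ranges overlapped, with KO higher at 9 of 12 time points and a log2 fold change of 0.10 ± 0.056 (SE; limma, adjusted p = 0.206). Within KO its level had a slope of 0.20 ± 0.056 log2 per 24 h (SE), the steepest relative to its error among these genes, and this slope was not called (limma, adjusted p = 0.0660).

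Wee1 and Ccnd1 act on the engine rather than through a CDK inhibitor. Wee1 lies on chromosome 7 from 110122059 to 110143299 on the plus strand and is driven by the clock in mouse liver. Its WT libraries ran from 2.26 RPKM at 24 h through a median of 3.38 RPKM to 4.30 RPKM at 56 h. Its KO libraries ran from 2.67 RPKM at 28 h through a median of 4.03 RPKM to 4.55 RPKM at 36 h. The ranges overlapped, with 2 KO libraries above every WT library. Wee1 had the widest relative spread of the brakes after Cdkn2c, with a coefficient of variation of 16.9% in WT and 17.0% in KO, and its log2 fold change of 0.16 ± 0.099 (SE) was not called (limma, adjusted p = 0.249). KO was above WT at 9 of 12 time points, and an exact sign-flip test within time points gave an unadjusted p of 0.0400.

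Ccnd1 encodes cyclin D1, the partner of CDK4 and CDK6, and pushes the cycle forward. It lies on chromosome 7 from 144929931 to 144939925 on the minus strand, and 818 bases of its exons are also covered by exons of the opposite-strand gene LTO1 in GENCODE vM21, so part of its reads is uncertain where strand was not used. It ran from 6.87 RPKM at 36 h through a median of 7.83 RPKM to 9.15 RPKM at 12 h in WT, and from 6.31 RPKM at 56 h through a median of 8.34 RPKM to 9.95 RPKM at 48 h in KO. The KO range enclosed the WT range, and the log2 fold change was 0.09 ± 0.072 (SE; limma, adjusted p = 0.349).

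In the p53 pair, Mdm2 rose and Trp53 did not pass the test. Mdm2 spans 117688875 to 117710758 on the minus strand of chromosome 10. Its WT libraries ran from 19.7 RPKM at 24 h through a median of 20.8 RPKM to 21.7 RPKM at 52 h. Its KO libraries ran from 21.4 RPKM at 24 h through a median of 22.7 RPKM to 24.7 RPKM at 16 h. All but 2 KO libraries, those at 24 and 52 h, lay above every WT library. The log2 fold change was 0.13 ± 0.026 (SE; limma, adjusted p = 9.4e-04), small but tight, because Mdm2 varied least of all these genes within WT (coefficient of variation 3.58%). KO was above WT at 11 of 12 time points, and the ratio of mean RPKM was 1.12 at 12 to 32 h and 1.06 at 36 to 56 h. Mdm2 was not called in the 6 late time points alone (limma, adjusted p = 0.121), and the difference in trend between the genotypes was not called either (limma, adjusted p = 0.841).

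Trp53 encodes p53 and lies on chromosome 11 from 69580359 to 69591873 on the plus strand. It ran from 17.6 RPKM at 48 h through a median of 20.4 RPKM to 22.6 RPKM at 20 h in WT, and from 17.7 RPKM at 56 h through a median of 19.9 RPKM to 22.4 RPKM at 12 h in KO. These ranges nearly coincided, and KO was higher at 4 of 12 time points. The log2 fold change of -0.04 ± 0.039 (SE; limma, adjusted p = 0.477) has a 95% confidence interval from -0.12 to 0.04. p53 is controlled largely through the stability of its protein, which RNA does not show.

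**Figure D3:**
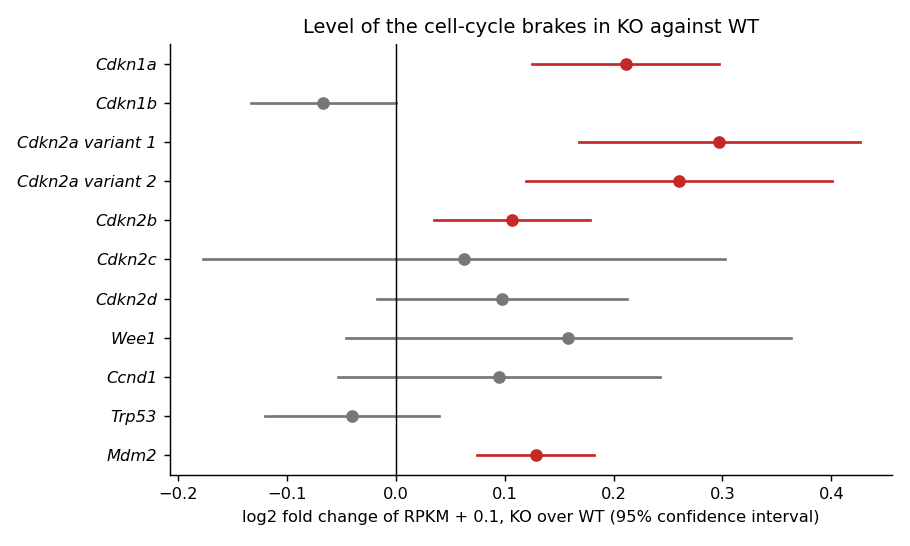
Log2 fold change of each cell-cycle brake in KO over WT, with points for the estimate and lines for the 95% confidence interval from limma; red marks an adjusted p under 0.05 and grey the others. The intervals of Cdkn1a, both Cdkn2a variants, Cdkn2b and Mdm2 lie above 0, from 0.11 to 0.30 at their centres. The unadjusted interval of Cdkn1b lies below 0 with its upper end at -1.7e-05, and that of Trp53 is centred below 0 and includes 0.

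Whether the brakes moved with time was asked in a joint limma model with a linear trend and a 24 h cosine within each genotype. None of the 11 entries had a called trend in WT or in KO, and 2.38% of all entries tested did in WT and 2.38% in KO. None had a called 24 h rhythm, which 0.0463% of all entries tested had in WT and 0.0728% in KO. None of the 15112 entries tested had a called difference between the genotypes in trend or in rhythm. At an unadjusted p under 0.05 (limma), 964 entries passed for trend and 729 for rhythm. A share of 0.05 of the entries is expected to pass that threshold where nothing differs. KO was above WT at every one of the 12 time points for 2 of the 11 entries, Cdkn1a and Cdkn2a variant 1, and for 2.65% of all entries tested.

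Wee1 had the smallest unadjusted p for a rhythm in KO, while in WT Cdkn2d had the smallest. The fitted 24 h amplitude of Wee1 was 0.22 on the log2 scale in WT with a peak at 12.3 h, and 0.31 in KO with a peak at 15.2 h, where the hour is counted from dexamethasone within a cycle of 24 h. The unadjusted p was 0.0256 in WT and 0.00332 in KO, and neither passed adjustment (limma, adjusted p = 0.607 and 0.498). Cdkn2d in WT had an amplitude of 0.15 (unadjusted p = 0.0173; limma, adjusted p = 0.579), and Cdkn2c in WT had a larger one of 0.31 (unadjusted p = 0.0348; limma, adjusted p = 0.617). The trough of Wee1 lay at 24 h in WT and at 28 h in KO. A cycle later, at 48 and 52 h, Wee1 was at 3.74 and 3.08 RPKM in WT against 4.26 and 3.68 RPKM in KO, none of them as low as the first trough. For Cdkn1a the amplitude was 0.04 in WT and 0.06 in KO on the log2 scale (limma, adjusted p = 0.829 and 0.877).

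**Figure D4:**
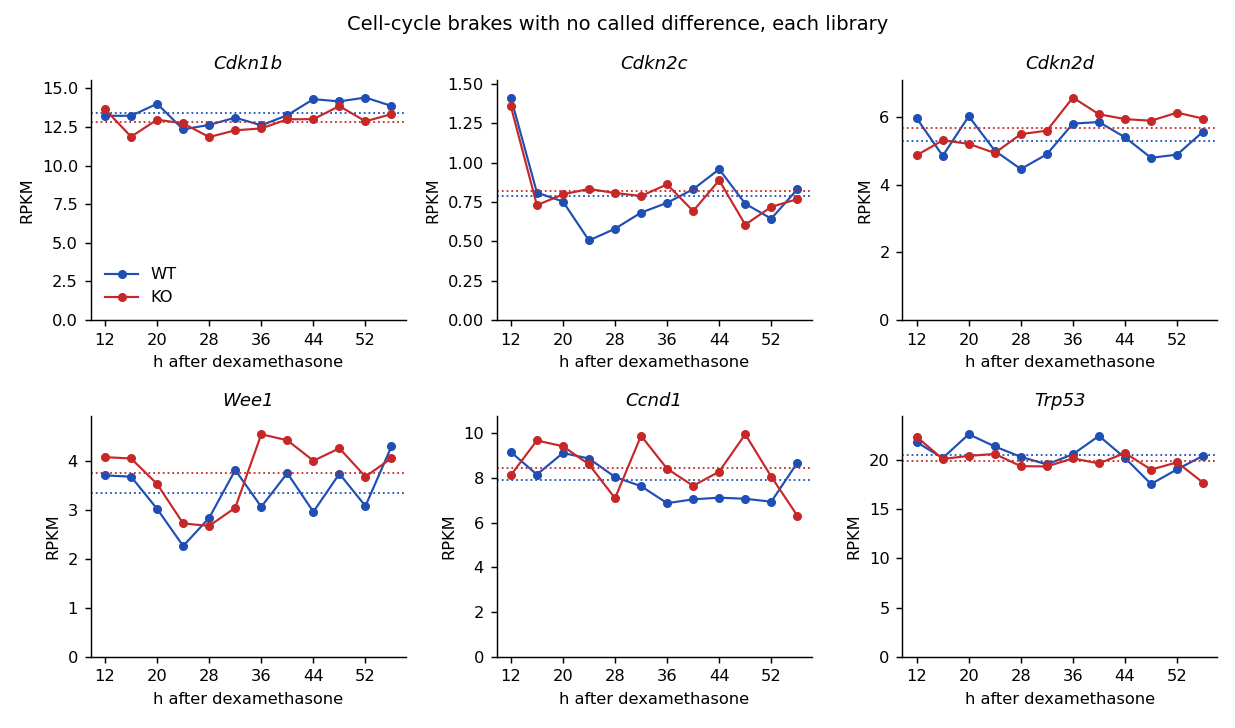
RPKM of the 6 genes with no called difference against hours after dexamethasone, 1 point per library, WT in blue and KO in red, with the mean of each genotype dotted. Wee1 dips to 2.26 RPKM at 24 h in WT and 2.67 RPKM at 28 h in KO, and Cdkn2c is highest at 12 h in both genotypes.

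No relation between the brakes over time passed its test. Among 10 relations of RPKM over the 12 time points of 1 genotype, none passed Benjamini-Hochberg adjustment of a two-sided permutation test, and neighbouring time points are not independent. The closest was Cdkn1a with Ccnd1 in WT (Pearson r = 0.549, permutation p = 0.0672, adjusted p = 0.272; Spearman rho = 0.601, permutation p = 0.0436, adjusted p = 0.366), which fell to r = 0.244 without the 12 and 20 h libraries and was r = -0.138 in KO. Cdkn1a with Trp53 gave r = 0.505 in WT and 0.512 in KO (permutation adjusted p = 0.272 for both), and the WT value rests on those same 2 libraries (r = 0.25 without them). Cdkn1a and Mdm2, both p53 targets, gave r = 0.171 in WT and 0.290 in KO.

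The genes whose pattern was most like that of Cdkn1a over the 24 libraries, after the mean of each genotype was taken out, were Anxa2 (Pearson r = 0.869), Phlda3 (0.828), S100a10 (0.818), Bysl (0.814) and Pfn1 (0.798), among 11662 genes with a mean of at least 1 RPKM in both genotypes. For Wee1, Mfsd7c (0.810), Cited1 (0.809), Nrm (0.799) and Pced1b (0.795) were among the 5 most alike. These are the top of a long ranking over shared libraries and are given as a description.

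The wider pathway was read from 6 lists with 116 genes outside the brakes. Of 114 entries tested, 14 were higher and 7 lower in KO cells, which is 12.3% and 6.14%, beside the 11.2% and 14.7% of all entries. The list of other CDK inhibitors and antiproliferative genes (14 tested), which also holds Cks1b and Cks2, CDK-binding subunits that are no brakes, had 3 higher and 1 lower, with a median log2 fold change of 0.01. Gadd45g, a stress-induced growth inhibitor, rose from 23.0 ± 2.16 to 30.3 ± 3.97 RPKM (SD, n = 12 each; limma, adjusted p = 1.1e-04) and was higher at 12 of 12 time points. Btg1, an antiproliferative gene, had a log2 fold change of 0.20 and Ccng1, a p53-induced cyclin, one of 0.12 (limma, adjusted p = 0.00744 and 0.0271), while Tob2 fell by 0.13 on the log2 scale (adjusted p = 0.00436).

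G1 cyclins, CDKs and pocket proteins (22 tested) had 3 higher and 1 lower, with a median of 0.05. Ccne1, which encodes the CDK2 partner cyclin E1, rose from 2.54 ± 0.390 to 3.45 ± 0.368 RPKM and was higher at 12 of 12 time points (log2 fold change 0.43 ± 0.073 SE; limma, adjusted p = 1.5e-04). Myc, a growth-promoting transcription factor, rose from 5.31 ± 0.485 to 6.53 ± 0.663 RPKM (limma, adjusted p = 4.6e-04). Rbl2, the pocket protein p130 of resting cells, fell by 0.11 on the log2 scale (limma, adjusted p = 0.0140), and Ccne2, named after its values were seen, made the third called higher (log2 fold change 0.20, adjusted p = 0.0458).

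Mitotic entry and checkpoint kinases (14 tested) had none called by limma, although 12 of the 14 log2 fold changes were above 0 and their median was 0.14. Proliferation genes (22 tested) likewise had 21 log2 fold changes above 0 with a median of 0.21, but only Rrm2, a subunit of ribonucleotide reductase, was called, rising from 6.45 ± 1.10 to 8.49 ± 1.47 RPKM (limma, adjusted p = 0.00316). These genes share their libraries and tend to move together, so the count above 0 is no test. Mki67, a marker of cycling cells named after its values were seen, had 1.09 ± 0.470 RPKM in WT against 1.44 ± 0.581 RPKM in KO (log2 fold change 0.39 ± 0.213 SE; limma, adjusted p = 0.185).

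Regulators of p53 (14 tested) had 2 higher and 2 lower, with a median of -0.07. Ppp1r13l, which encodes the p53 inhibitor iASPP, had a log2 fold change of 0.46 ± 0.076 (SE; limma, adjusted p = 1.3e-04), and Trp63, a p53 relative of epithelial cells, one of 0.36 ± 0.098 (adjusted p = 0.00824). Trp53bp2 fell by 0.09 (adjusted p = 0.0262), and Trp73, named after its values were seen, fell by 0.29 from 0.254 RPKM in WT (adjusted p = 0.0322). Targets of p53 (28 tested) had 5 higher and 3 lower, with a median of 0.05. Pmaip1, which encodes the cell-death protein NOXA, had the largest change of any gene on these lists, from 1.05 ± 0.165 to 3.11 ± 0.737 RPKM (SD, n = 12 each; log2 fold change 1.46 ± 0.107 SE; limma, adjusted p = 1.7e-09), higher at 12 of 12 time points. Plk2 and Perp rose by 0.50 and 0.52 on the log2 scale (limma, adjusted p = 3.9e-06 and 4.5e-04). Sesn1, a stress-response target of p53, fell from 12.5 ± 0.624 to 9.90 ± 0.770 RPKM and was lower at all 12 time points (limma, adjusted p = 2.1e-06). Named after their values were seen, Rps27l and Phlda3 made up the called higher and Ddb2 and Xpc the called lower.

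**Figure D5:**
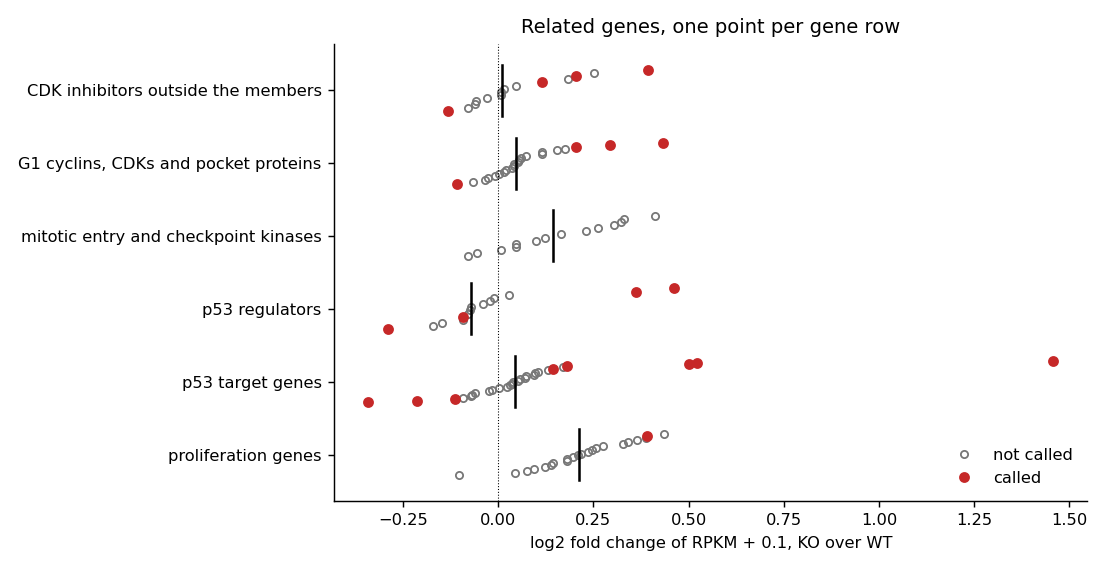
Log2 fold change in KO over WT of the genes on the 6 related lists, 1 point per entry, filled red where limma gave an adjusted p under 0.05, with the list median as a black bar. Points of every list fall on both sides of 0, and Pmaip1 stands alone at 1.46.

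From 6183500 to 10287969 fragments per library fell on exons of the table, which is 44.7% to 46.0% of the library totals. Gene-level values do not single out the deleted exons, and the genotypes are taken from the labels. Nr1d1 had 5.04 ± 1.26 RPKM in WT against 6.39 ± 2.67 RPKM in KO, and Nr1d2 had 1.85 ± 0.746 RPKM against 3.22 ± 1.34 RPKM (SD, n = 12 each). Arntl (Bmal1) and Npas2, known targets of REV-ERB repression, stood above their WT level in all 12 KO to WT pairs, with log2 fold changes of 0.41 and 0.62 (limma, adjusted p = 1.5e-04 and 2.6e-06). Markers of other cell types differed in part: among 5 mesoderm markers Tagln and Des were called higher and Twist1 lower, among 5 endoderm markers Gata4 and Gata6 were lower, and Adgre1 of 4 leukocyte markers and Pecam1 of 4 endothelial markers were higher in KO (limma). The summed level of the mesoderm markers was 240 to 329 RPKM in WT and 253 to 368 RPKM in KO, that of the endoderm markers 39.1 to 753 RPKM and 36.8 to 711 RPKM, that of the leukocyte markers 59.1 to 69.0 RPKM and 61.5 to 70.1 RPKM, and that of the endothelial markers 4.21 to 16.8 RPKM and 7.83 to 14.9 RPKM. None of 5 ectoderm markers (6.67 to 28.1 RPKM and 4.49 to 15.3 RPKM) or of the 4 tested among 6 pluripotency markers (12.7 to 21.6 RPKM and 12.9 to 19.2 RPKM) was called, and the pluripotency marker Zfp42 was near 0. The part of these markers in the differences of the cell-cycle brakes was not tested.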

How the data were processed

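RNA was polyA-selected, prepared with the TruSeq RNA Sample Prep Kit v2 and sequenced as 101-bp pairs. Per the labels and the study's methods, adaptors were removed with Trimmomatic 0.36, STAR 2.5.4b aligned reads to GRCm38, alignments of mapping quality under 10 were dropped with SAMtools, and HOMER counted exonic reads of UCSC known canonical genes. The authors deposited the result as RPKM. The use of strand and the versions of SAMtools and HOMER are not given in the sources used here. Multiplied back by length and total, 100% of the RPKM values were multiples of 0.5 fragment (tolerance 0.005). These fragments describe depth only, and no count test was run.

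The genotypes were set against each other by limma 3.58.1 (R 4.3.3) on log2(RPKM + 0.1), which understates changes of low genes, over 15112 of 33079 entries with a mean above 0.5 RPM in a genotype. The 12 time points of a genotype served as its replicates, so p-values measure the spread between these libraries. Time was modelled with a linear trend and 24 h cosine and sine terms per genotype, since MetaCycle was not at hand. Permutation tests used 100000 resamples and sign-flip tests all 4096 orders, run with scipy 1.17.1, numpy 2.4.6 and pandas 2.3.3 under Python 3.11.15, with matplotlib 3.10.9 for figures. The scripts were tested on simulated data. Coordinates are as deposited. Named are all 10 brakes, the 4 largest called changes per related list at 1 RPKM or more, the 5 genes most like Cdkn1a and Wee1 (1 gene like Wee1 is not reported here), and the targeted genes. The genes and lists were chosen with earlier results of these data known. Protein, PCR and bioluminescence data were not analysed here.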

Additional observations from a re-analysis of the deposited data

How the results depend on the processing

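All 5 entries called higher in KO cells kept their direction under every alternative tried (pseudocounts of 1 and 0.01, filters, scalings, covariates, sets of time points). Their sizes moved with the scaling. The log2 fold change of Cdkn1a was 0.21 in the main fit, 0.15 under quantile normalization and 0.22 under median-ratio scaling. That of Mdm2 was 0.13, 0.11 and 0.14 in these fits, and both genes stayed called. Sign changes occurred only among values that were not called on either side. The Cdkn2c level difference became -0.0593 with 36 to 56 h alone. Trends in WT (log2 per 24 h) became -0.00441 for Cdkn2a variant 1 with a 26 h period, -0.0425 for Cdkn2c with a 22 h period and -0.00102 with a pseudocount of 1, and without cosine and sine -0.00296 for Cdkn2a variant 1, -0.105 for Cdkn2c and -0.0275 for Cdkn2d. The trend difference of Cdkn2b became -0.00256 under quantile normalization, -0.000229 with a 22 h period and -0.0168 without cosine and sine. When a time point was left out, WT trends ranged from -0.0796 to 0.0408 for Cdkn2a variant 1, -0.0745 to 0.0676 for variant 2, -0.0407 to 0.00323 for Cdkn2b and -0.0406 to 0.254 for Cdkn2c, the KO trend of Cdkn2b from -0.0267 to 0.0444, and trend differences from -0.0483 to 0.000370 for Cdkn1b, -0.0174 to 0.0556 for Cdkn2b and -0.0453 to 0.0339 for Trp53. With 12 to 32 h alone 2 were called (Cdkn1a and Mdm2) and with 36 to 56 h alone 3 (Cdkn1a and both Cdkn2a entries), each from 6 libraries per genotype. Leaving out each time point in turn gave 4 to 5 called entries, with only Cdkn2b lost. Cdkn2b was also the entry lost under quantile normalization and at an adjusted p under 0.01. Over all entries tested, the 3918 called became 1115 at 12 to 32 h, 1903 at 36 to 56 h and 2109 at an adjusted p under 0.01. For the trend in KO, 1 entry (Cdkn2d, adjusted p = 0.0474) was called under quantile normalization. The 7 related genes called lower became 3 at an adjusted p under 0.01 and 4 to 8 when a time point was left out, with 4 without 24 h. With the time point as a replicate block (paired by hour), 5 entries of the brakes were called as before, 20 and 8 related genes were called higher and lower in place of 14 and 7, and the adjusted p of Mdm2 became 0.00496. Libraries of the same hour deviated together in part (mean r = 0.222, over 0.1 in 9 of 12 pairs). For different hours the mean r was -0.0203, with 44 of 132 pairs over 0.1. The main test leaves out this pairing by hour, and the paired fit called 4212 of all entries tested in place of 3918. Among entries not called by limma, single-gene permutation tests gave an unadjusted p under 0.05 for Cdkn1b (permutation test, p = 0.0373). Exact sign-flip tests did so for Cdkn1b and Wee1. Cdkn2c could not be tested under the filter at 1 RPKM. No time point has a replicate, and 1 line per genotype limits every comparison.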
